A study of Rattus norvegicus with 12 samples.

Results

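The 9 genes described here, measured in kidneys of obese and lean Zucker rats, are 8 genes of smooth muscle, pericytes and myofibroblasts, and the actin-binding gene Cotl1. They were chosen by symbol (Acta2, Myh11, Myl9, Tpm2, Tagln, Cnn1, Des, Pdgfrb and Cotl1), with every probe set annotated to a listed symbol counted as a member. These genes, and the related lists below, were chosen with earlier results of these data known. Cotl1 was taken because its signal had been seen to be lower with rosiglitazone, so its response to the drug is given as a description without a test. The array annotation held 18 such probe sets among 31042, of which 13 carried 1 symbol and 5 carried both Acta2 and Actc1. Of the 18, 9 passed the filter on dim probe sets and were tested among 18625. These 9 covered 8 of the 9 genes with 1 symbol, plus 1 of the 5 shared probe sets.

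The arrays held whole kidney RNA from 12 male Zucker rats, 1 array per rat and 3 rats in each of 4 groups. The groups were obese rats fed rosiglitazone in ground chow at 3 mg/kg body weight, lean rats fed the same, obese rats fed the chow alone (control diet) and lean rats fed the chow alone, all for 12 weeks. The obese form of this strain carries a mutated leptin receptor in all its tissues. Per the labels the animals model diabetes, and these labels give neither the age of the rats nor the genotype of the lean rats. Rosiglitazone is an agonist of the nuclear receptor PPARgamma. The rats within a group are separate animals, and their number limits the precision of every value below. RNA was taken from kidney tissue as a whole, so fewer cells of a type and less RNA per cell cannot be told apart.

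Smooth muscle in renal arteries and arterioles shortens when myosin pulls on actin filaments, and this force sets renal blood flow. Pericytes, mesangial cells and myofibroblasts carry part of the same machinery and respond to platelet-derived growth factor. Many of the genes are driven by serum response factor, which with its partner myocardin binds a DNA element known as the CArG box. Coactosin-like protein, the product of Cotl1, binds actin filaments and the leukotriene-forming enzyme 5-lipoxygenase, and is abundant in leukocytes.

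Because CArG boxes are known from smooth muscle promoters, the 250 bases before the annotated start of each gene were searched for that 10-base element, which reads the same on both strands. Promoters for 5 of the 9 genes were in the RefSeq table of the rat assembly GRCr8: Acta2, Tpm2, Des, Cnn1 and Cotl1. The exact element was in 501 of 33469 promoters (1.5%), and with at most 1 mismatch in its central 6 bases in 2703 (8.08%). None of the 5 held the exact element. Acta2 held 2 matches with 1 mismatch, starting 134 and 84 bases before the start, and the other 4 held none. A match describes letters only, and no match says only that these letters were not in this window. The promoters of Acta2, of Tpm2 (the member with the clearest body type difference) and of Cotl1 follow 5′ to 3′ on the strand of the gene, with the CArG-like matches in capitals.
Acta2 promoter, chr1:241172504-241172753, minus strand: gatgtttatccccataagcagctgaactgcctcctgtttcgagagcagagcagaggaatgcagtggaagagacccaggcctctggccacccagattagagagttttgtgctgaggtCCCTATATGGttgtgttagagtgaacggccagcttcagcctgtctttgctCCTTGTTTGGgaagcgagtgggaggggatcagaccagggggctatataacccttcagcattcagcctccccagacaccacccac
Tpm2 promoter, chr5:62575727-62575976, minus strand: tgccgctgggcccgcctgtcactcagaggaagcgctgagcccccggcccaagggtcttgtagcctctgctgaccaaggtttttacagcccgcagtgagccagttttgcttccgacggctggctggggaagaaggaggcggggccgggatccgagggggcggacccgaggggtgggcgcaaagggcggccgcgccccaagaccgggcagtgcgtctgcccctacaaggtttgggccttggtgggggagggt
Cotl1 promoter, chr19:64814630-64814879, minus strand: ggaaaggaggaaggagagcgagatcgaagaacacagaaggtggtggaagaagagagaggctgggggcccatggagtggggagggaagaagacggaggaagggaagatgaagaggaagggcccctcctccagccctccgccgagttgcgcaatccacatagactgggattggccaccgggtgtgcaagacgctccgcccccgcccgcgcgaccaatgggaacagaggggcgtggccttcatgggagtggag

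Signals were comparable in overall scale between arrays, with array medians between 204 and 238.6. The ratio of 3′ to 5′ signal lay between 1.07 and 1.32 for Gapdh and between 1.57 and 2.4 for actin. Lean rosiglitazone 3 was least like its own group, with a median correlation of 0.953 against 0.96 to 0.977 for the other arrays. The cre spike-in, RNA added as a hybridization control, split the arrays into a higher class of 12516 to 13210 units (lean control 1 and 2, lean rosiglitazone 1 and 2, obese control 1) and a lower class of 7909 to 10356 units (all others). All obese rosiglitazone arrays were in the lower class. Values are MAS5 signals, the linear intensity that the authors deposited, and changes are differences in log2(signal + 16). A gene passed at an adjusted p under 0.05 in limma across all 18625 probe sets.

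**Figure D1:**
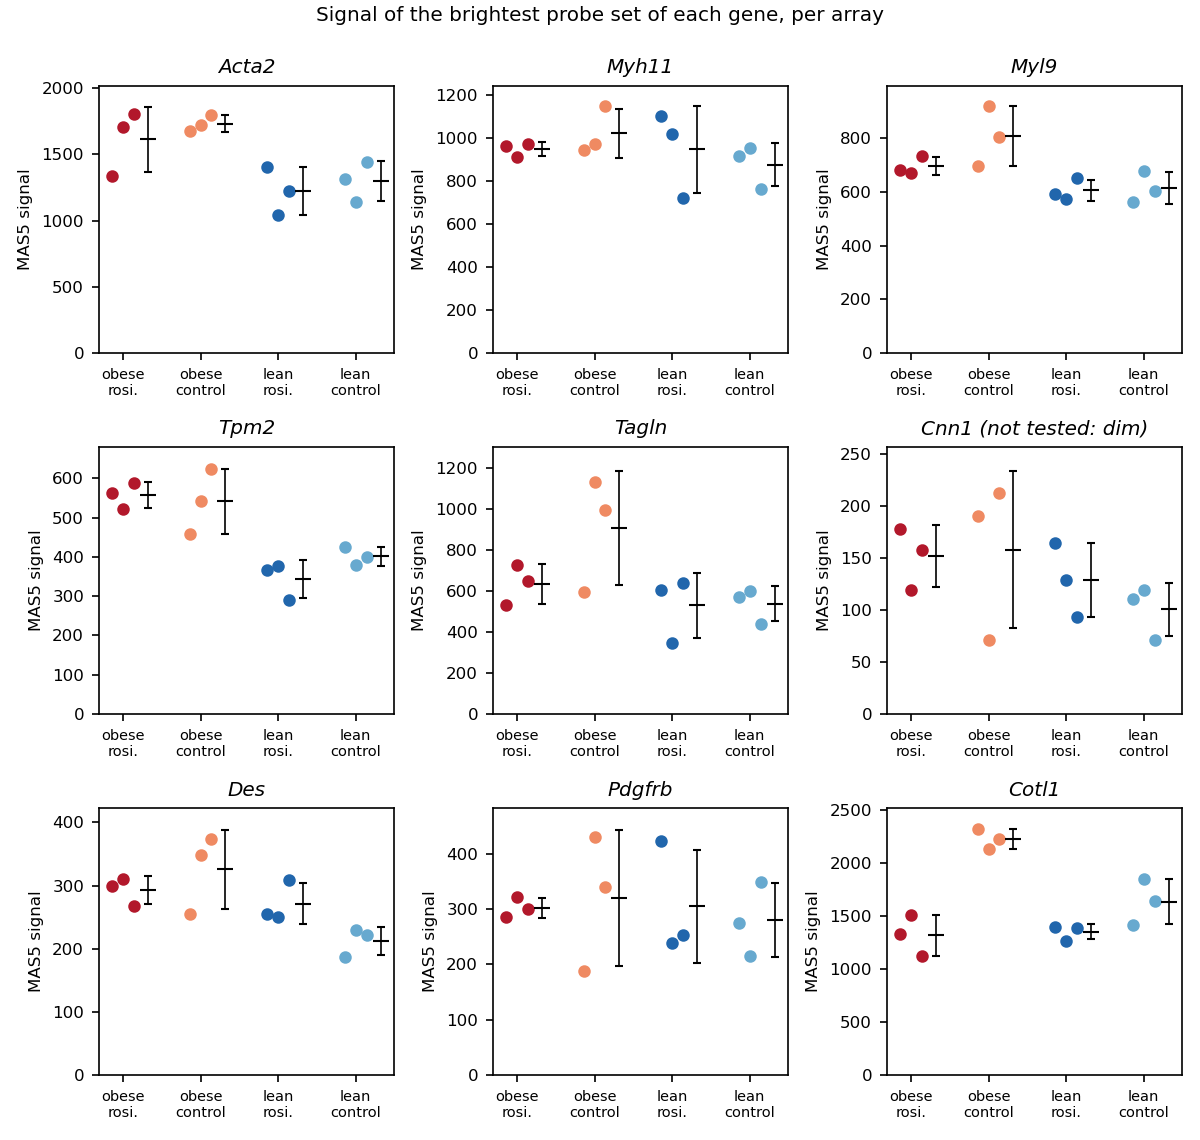
Signal of the brightest probe set of each of the 9 genes in MAS5 units on linear axes from 0, 1 point per array in the 4 groups, with the group mean and SD (n = 3) beside the points. In Tpm2 and Myl9 the 3 obese points lie above the 3 lean points on each diet, and the 3 obese control points of Cotl1, 2133 to 2317, lie above all other arrays.

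Over both diets, 3 smooth muscle genes were higher in obese kidneys than in lean ones: Tpm2, Acta2 and Myl9. They rose by 0.54, 0.41 and 0.29 on the log2 scale, and no member fell past the test. These 3 were 3 of the 9 tested member probe sets, and over the whole array 14.3% of probe sets passed in this comparison, 7.69% in the upward direction. The 7 tested smooth muscle and pericyte genes all had changes above 0, with a median of 0.34, beside a median of 0.03 over all probe sets, of which 54.7% were above 0. Without adjustment, 5 of the 7 had p under 0.05, as did 28.1% of all probe sets. Since the genes were chosen with earlier results of these data known, these shares are a description and no test of the set.

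Tpm2 encodes beta-tropomyosin, which lies along the actin filament and gates its contact with myosin. Its signal was 564, 523 and 587 in obese rosiglitazone kidneys, against 367, 376 and 289 in lean rosiglitazone kidneys. On chow alone it was 458, 543 and 624 in obese kidneys, against 425, 379 and 400 in lean kidneys. Every obese array lay above every lean array of the same diet, and the lowest obese value, 458, lay above the highest lean value of either diet, 425. Such a full separation in the upward direction within both diets was found in 5.5% of probe sets. The change over both diets was 0.54 (SE 0.10, adjusted p = 0.00289). Within the rosiglitazone diet it was 0.68 (SE 0.14, adjusted p = 0.0154), and within the control diet 0.41 (SE 0.14, adjusted p = 0.131). The rosiglitazone-diet call was lost when obese rosiglitazone 1 (adjusted p = 0.0523) or obese rosiglitazone 3 (adjusted p = 0.0606) was left out. The call over both diets stood without any 1 array and with spike-in class added to the model (adjusted p = 0.0123). A further Tpm2 probe set, below the filter and not tested, overlapped between body types on both diets. It averaged 126.7 in obese and 116.7 in lean rosiglitazone kidneys, and 68.27 in obese and 85.86 in lean control kidneys.

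Acta2 encodes alpha smooth muscle actin, the thin filament of vascular smooth muscle and the usual marker of myofibroblasts. Its signal was 1337, 1706 and 1803 in obese rosiglitazone kidneys, against 1405, 1043 and 1223 in lean rosiglitazone kidneys. Fed chow alone, the obese kidneys had 1673, 1721 and 1800, against 1311, 1142 and 1439 in the lean kidneys. The control diet groups did not overlap, while on rosiglitazone 1 obese array lay below the highest lean array. Full separation upward on the control diet was found in 14.4% of probe sets. The change was 0.41 over both diets (SE 0.09, adjusted p = 0.0108), 0.40 on rosiglitazone (adjusted p = 0.109) and 0.42 on the control diet (adjusted p = 0.0961). With spike-in class added to the model it was 0.35 over both diets (adjusted p = 0.0555), and within the lower class alone 0.34 (adjusted p = 0.162). The lower class held 1 lean array on each diet, so that fit assumes that a lone array varies like the other groups.

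Myl9 encodes the regulatory light chain of smooth muscle myosin, whose phosphorylation starts contraction. Its signal was 683, 671 and 734 in obese rosiglitazone kidneys, against 594, 573 and 651 in lean rosiglitazone kidneys, and the groups did not overlap. In controls it was 699, 921 and 807 in obese kidneys, against 563, 680 and 605 in lean kidneys, again without overlap. Full separation upward was found in 13% of all probe sets on rosiglitazone, in 14.4% on the control diet and in 5.5% on both diets. The change was 0.29 over both diets (SE 0.09, adjusted p = 0.0407), 0.20 on rosiglitazone (adjusted p = 0.422) and 0.38 on the control diet (adjusted p = 0.102). This call was the least steady of the 3, since it stood in only 3 of the 12 fits that left out 1 array, although the change itself stayed between 0.24 and 0.34 in them. With spike-in class added to the model the change was 0.22 (adjusted p = 0.177).

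Tagln, which encodes the actin-bundling protein SM22alpha, did not pass. Its signal was 534, 727 and 649 in obese rosiglitazone kidneys, against 606, 348 and 639 in lean rosiglitazone kidneys. In controls it was 596, 1135 and 996 in obese kidneys, against 571, 602 and 441 in lean kidneys. Obese control 2 and 3 stood far above the rest, while obese control 1 lay among the lean arrays. The change was 0.70 on the control diet (SE 0.25, adjusted p = 0.140), 0.29 on rosiglitazone (adjusted p = 0.580) and 0.50 over both (adjusted p = 0.0813). Without obese control 1 the adjusted p over both diets was 0.0191.

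Des encodes desmin, the intermediate filament that ties the contractile bundles together and that mesangial cells and injured podocytes also make. On the control diet it read 255, 349 and 374 in obese kidneys, against 186, 229 and 222 in lean kidneys, with no overlap. Full separation upward on this diet was found in 14.4% of all probe sets. On rosiglitazone Des read 299, 311 and 268 in obese kidneys, against 254, 251 and 308 in lean kidneys, and the ranges overlapped. The change was 0.57 on the control diet (SE 0.17, adjusted p = 0.0791), 0.11 on rosiglitazone (adjusted p = 0.794) and 0.34 over both diets (adjusted p = 0.0824). As with Tagln, leaving out obese control 1 brought the value over both diets past the threshold (adjusted p = 0.0353).

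Myh11 and Pdgfrb showed no detectable body type difference. Myh11, the smooth muscle myosin heavy chain, averaged 946.2 ± 33.56 in obese rosiglitazone kidneys and 945 ± 201 in lean rosiglitazone kidneys, and 1020 ± 111.9 in obese control and 874.3 ± 100.8 in lean control kidneys (SD, n = 3 each). The change of Myh11 over both diets was 0.12, with a 95% interval of -0.10 to 0.35 (adjusted p = 0.493). Pdgfrb, the receptor for platelet-derived growth factor B that marks pericytes and mesangial cells, averaged 302.6 ± 17.63 in obese rosiglitazone and 305.3 ± 102.7 in lean rosiglitazone kidneys, and 320.4 ± 122.7 in obese control and 280.2 ± 67.48 in lean control kidneys. Its change over both diets was 0.08, with an interval of -0.34 to 0.50 (adjusted p = 0.825). The spread of Pdgfrb between rats was wide, from 189 to 432 within the obese control group.

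Cnn1, which encodes calponin, an actin-bound brake on smooth muscle myosin, was dim on this array and fell just outside the filter, at a mean log2 value of 7.17 against a minimum of 7.32. It read 178, 120 and 158 in obese rosiglitazone kidneys, against 165, 129 and 93 in lean rosiglitazone kidneys, and 191, 71.5 and 213 in obese control kidneys, against 111, 120 and 71.5 in lean control kidneys. The groups overlapped on both diets, and the gene was not tested. The dimmest member just inside the filter, at 7.44, was the tested probe set shared by Acta2 and Actc1, the heart actin. It read 124 to 168 in the 6 obese kidneys, against 135 to 255 in the 6 lean kidneys, the opposite side from the Acta2 probe set, and did not pass over both diets (change -0.26, adjusted p = 0.313). On rosiglitazone alone all 3 obese arrays lay below the lean ones, as in 10.4% of all probe sets. The other 8 member probe sets below the filter averaged from 5.06 to 6.56 on the log2 scale.

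With the control diet taken alone, 1 of the 9 member probe sets passed, that of Cotl1, where 4.74% of all probe sets did. Nothing is read from it, because these arrays chose the gene. On rosiglitazone alone, again 1 of 9 passed, that of Tpm2, where 5% of all did. The median change of the 7 smooth muscle and pericyte genes was 0.41 on the control diet, 0.20 on rosiglitazone and, over all probe sets, 0.03 and 0.02 on the same diets. The rosiglitazone value was 0.09 without lean rosiglitazone 2 and 0.10 with spike-in class added to the model. On the control diet the obese arrays were not alike: the mean log2 value of the 7 genes relative to their 12-array mean was -0.07 in obese control 1, 0.39 in obese control 2 and 0.37 in obese control 3. It was -0.18, -0.18 and -0.16 in the lean control arrays. In the obese rosiglitazone arrays it was 0.02, 0.13 and 0.13, against 0.01, -0.29 and -0.18 in the lean rosiglitazone arrays.

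Obese control 1 was also the only obese array of the higher spike-in class. Within that class the median control-diet change of the 7 genes was 0.17, with 6 of 7 above 0, and within the lower class 0.50. The higher class held 1 obese control array and the lower class 1 lean control array, so each value rests on a lone array. The same array had the lowest summed signal of its group for markers of podocytes (2486, beside 4157 and 5509), endothelium (5866, beside 8125 and 9659) and pericytes and mesangial cells (2354, beside 2994 and 3772). The part of the spike-in class and of sampling of these cell types in the member values was not tested.

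**Figure D2:**
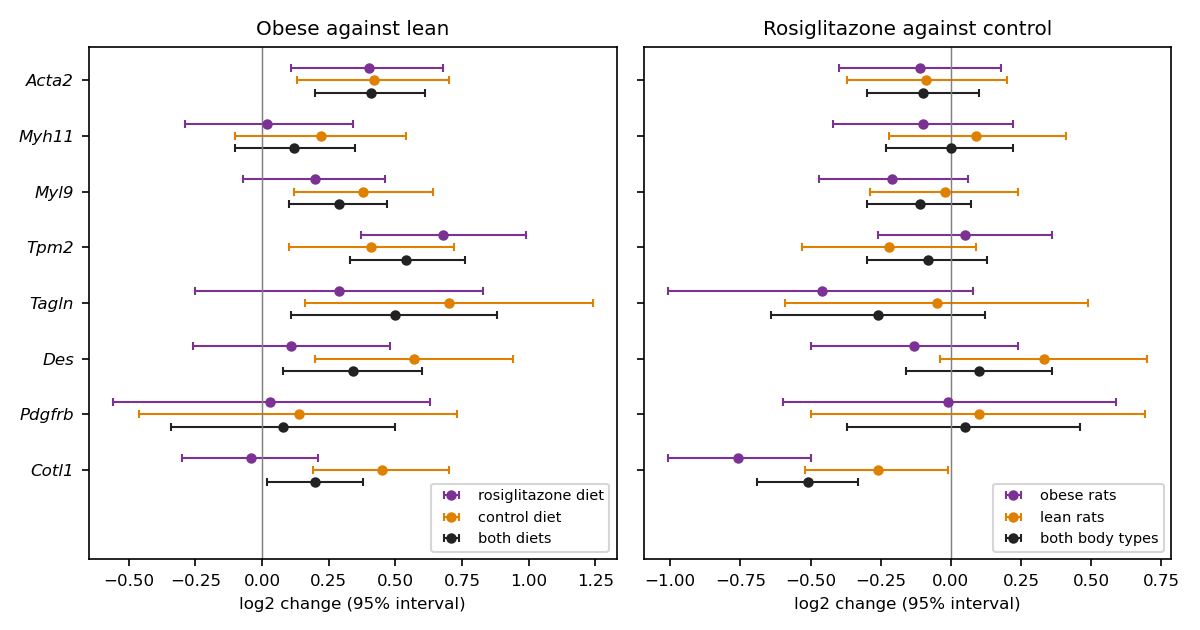
Log2 changes (x axis) of the brightest tested probe set of 8 genes (y axis), with points for the fitted value and bars for its 95% interval. On the left, obese against lean, the black intervals over both diets lie above 0 for Acta2, Myl9, Tpm2, Tagln and Des. On the right, rosiglitazone against control, all intervals of the smooth muscle and pericyte genes include 0, and Cotl1, chosen for its drug response, has changes of -0.76 in obese rats, -0.26 in lean rats and -0.51 over both, with intervals that are no test.

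No smooth muscle or pericyte gene changed past the test with rosiglitazone. Of the 7 tested genes none passed in limma in obese rats, in lean rats or over both, and none of the 7 had an unadjusted p under 0.05. Over all probe sets, 0.0698% passed in obese rats, 0.00537% in lean rats and 0.0591% over both, so few genes of any kind passed. The median change of the 7 genes was -0.11 in obese rats, -0.02 in lean rats and -0.08 over both, where the median over all probe sets was 0 each time. These medians moved with single arrays. In obese rats the value was -0.29 without obese control 1 and -0.03 without obese control 3. In lean rats it was -0.15 without lean rosiglitazone 1, -0.07 without lean rosiglitazone 3, and 0.03 without lean rosiglitazone 2 or without lean control 2. Over both it ran from -0.12 without obese control 1 to -0.03 without obese control 3, lean rosiglitazone 3 or obese rosiglitazone 1. The widest change among them was that of Tagln in obese rats, -0.46 with an interval of -1.01 to 0.08 (adjusted p = 0.999), and it was -0.74 without obese control 1 and -0.28 without obese control 2.

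In lean rats 2 of the genes separated without passing the test. Tpm2 read 367, 376 and 289 with rosiglitazone, against 425, 379 and 400 without, a change of -0.22 (interval -0.53 to 0.09, adjusted p = 0.981). Des read 254, 251 and 308 with rosiglitazone, against 186, 229 and 222 without, a change of 0.33 (interval -0.04 to 0.70, adjusted p = 0.981). Full separation in lean rats was found downward in 4.44% and upward in 4.1% of all probe sets. In obese rats the same 2 genes overlapped between diets and changed by 0.05 and -0.13.

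The difference in the drug's effect between body types passed for none of the 9 member probe sets and for 0% of all probe sets, though 802 of 18625 had an unadjusted p under 0.05. Among the smooth muscle genes it was widest for Des, at -0.46 with an interval of -0.99 to 0.06 (adjusted p = 0.992). The drug comparisons and the body type comparisons use the same control arrays, so their values are set side by side and are not independent.

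Cotl1 was lower with rosiglitazone in both body types. Its signal was 1327, 1507 and 1123 in obese rosiglitazone kidneys, against 2317, 2133 and 2226 in obese control kidneys. In lean rats it was 1398, 1267 and 1392 with rosiglitazone, against 1419, 1850 and 1639 without. The treated arrays lay below all untreated arrays of the same body type, by a wide gap in obese rats and a narrow one in lean rats. Full separation downward was found in 6.34% of all probe sets in obese rats, in 4.44% in lean rats and in both body types together in 0.408%. The Cotl1 probe set was the 1 member of 9 past the test in obese rats and for both body types together, from which nothing is read. Since the gene was chosen for this pattern, the drug changes of -0.76 in obese rats (SE 0.12), -0.26 in lean rats (SE 0.12) and -0.51 over both (SE 0.08) are given as descriptions, as is the difference of -0.49 between body types (SE 0.17).

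The body type levels of Cotl1 differed by diet. Obese control kidneys averaged 2225 ± 91.63, the highest of the 4 groups, and lean control kidneys 1636 ± 215.3, a difference of 0.45. On rosiglitazone the averages were 1319 ± 192.2 in obese and 1352 ± 73.68 in lean kidneys (SD, n = 3 each), a difference of -0.04, and over both diets the difference was 0.20. These values come from the arrays used to choose the gene and are given without a test. By group mean, obese control came first and lean control second. The lean and obese rosiglitazone groups overlapped, and lean control 1, at 1419, lay below obese rosiglitazone 2, at 1507.

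Leukocytes are a known source of Cotl1, and their markers were read beside it. All 11 tested leukocyte markers had changes below 0 with rosiglitazone in obese rats, with a median of -0.26. None of the 11 passed, where 0.0698% of all probe sets did. Coro1a, which encodes the leukocyte actin-binding protein coronin, had the widest change at -0.91 (SE 0.33, adjusted p = 0.806), and Ptprc, the pan-leukocyte antigen CD45, changed by -0.22 (adjusted p = 0.999). The summed signal of the 12 markers on the array was 7613 to 7853 in obese rosiglitazone kidneys, against 8608 to 10680 in obese control kidneys. Much of each sum came from the brightest marker, Cd74, which averaged 3867 in obese rosiglitazone and 4805 in obese control kidneys. In lean rats the sums overlapped, at 8832 to 10000 with rosiglitazone and 8214 to 10270 without, and the median change of the markers was 0.02. Between body types over both diets 2 of the 11 rose and 1 fell, where 7.69% of all probe sets rose and 6.62% fell. Of these, Tyrobp (0.46) and Cd53 (0.45), both of myeloid cells, rose in obese kidneys and Cd74, the invariant chain of antigen presentation, fell by 0.37. The part of leukocyte content in the Cotl1 values was not tested.

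**Figure D3:**
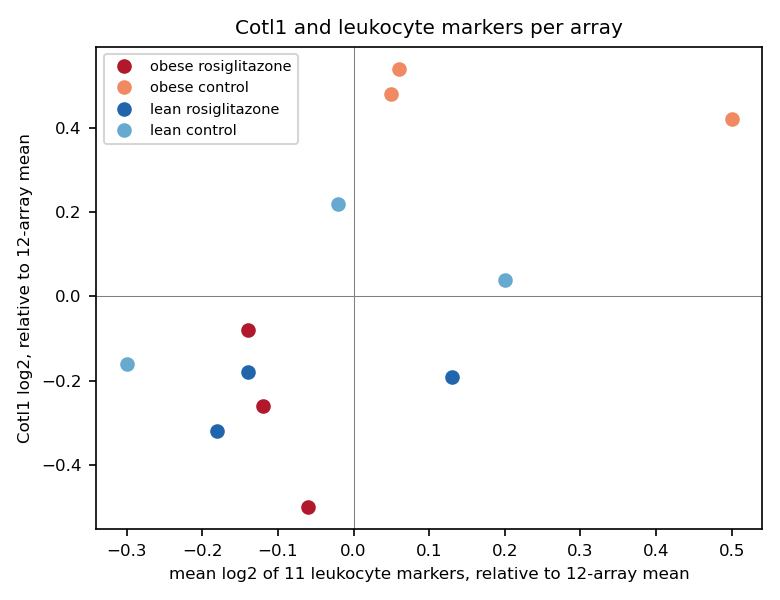
Log2 value of Cotl1 (y axis) against the mean log2 value of 11 leukocyte markers (x axis), both relative to their mean over 12 arrays, 1 point per array and colour by group. The 3 obese control arrays have the highest Cotl1 values, 0.42 to 0.54, at leukocyte means of 0.05 to 0.50. The 3 obese rosiglitazone arrays have Cotl1 values of -0.50 to -0.08 at leukocyte means of -0.14 to -0.06. Lean control arrays run from -0.16 to 0.22 at leukocyte means of -0.30 to 0.20. Lean rosiglitazone arrays run from -0.32 to -0.18 at leukocyte means of -0.18 to 0.13.

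The enzyme partners of Cotl1 in leukotriene synthesis did not pass in any comparison. Alox5 and Alox5ap were below the filter, and of the 2 tested, Ltc4s, leukotriene C4 synthase, changed by 0.29 with rosiglitazone in obese rats (adjusted p = 0.999) and Lta4h, leukotriene A4 hydrolase, by 0.00 (adjusted p = 0.999).

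Other actin-dynamics genes, including relatives of Cotl1 with the same actin-depolymerizing-factor domain, showed no called drug response. Of 17 tested, 0 passed with rosiglitazone in either body type, where 0.0698% of all probe sets passed in obese rats and 0.00537% in lean rats. With so few calls on the whole array, the count is no result about the list. The medians were -0.07 in obese rats and -0.05 in lean rats. Twf2, twinfilin 2, was -0.43 in obese rats (SE 0.20) and Gmfg, glia maturation factor gamma of leukocytes, -0.30 (SE 0.19), and neither passed. Between body types over both diets, 3 of the 17 rose and 1 fell, where 7.69% of all probe sets rose and 6.62% fell. Gsn, the filament-severing protein gelsolin, averaged 3897 ± 194.9 in obese rosiglitazone and 2693 ± 224.8 in lean rosiglitazone kidneys, and 3965 ± 101.2 in obese control and 2578 ± 433.4 in lean control kidneys. Its change was 0.58 (SE 0.08, adjusted p = 0.000303), and it passed on each diet alone. Dbn1, the filament-binding protein drebrin, rose by 0.39 and Arpc1b, a subunit of the Arp2/3 complex, by 0.22. Msn, the membrane linker moesin, fell by 0.29 on this probe set, while another of its probe sets changed by -0.20 and did not pass (adjusted p = 0.533).

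The wider contractile apparatus was examined as a list of 23 genes, of which 20 were tested. The list was chosen with earlier results of these data known, so its counts and median are descriptions. Over both diets 7 rose and 1 fell in obese kidneys, where 7.69% of all probe sets rose and 6.62% fell, and the median of the list was 0.20, beside 0.03 over all probe sets. The highest change among those that passed was in Actn1, alpha-actinin 1, which anchors actin filaments. Actn1 averaged 1419 ± 129.6 in obese rosiglitazone and 1056 ± 95.28 in lean rosiglitazone kidneys, and 1584 ± 82.74 in obese control and 1025 ± 66.59 in lean control kidneys (SD, n = 3 each). Its change was 0.52 (SE 0.07, adjusted p = 0.000398), with 0.62 on a further probe set of the gene (adjusted p = 0.00438). Tagln2, a close relative of Tagln found in many cell types, rose by 0.41 (adjusted p = 0.000591), and Csrp1, a LIM protein of smooth muscle, by 0.41 (adjusted p = 0.00195). Each of these 3 passed on both diets alone.

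The other risers were Cald1, caldesmon (0.44, adjusted p = 0.02), Flna, filamin A (0.41, adjusted p = 0.0202), Cnn2, a calponin made outside muscle as well (0.44, adjusted p = 0.0208) and Tpm1, alpha-tropomyosin (0.25, adjusted p = 0.0378). A further Cald1 probe set changed by only 0.10 and did not pass (adjusted p = 0.564), and 3 further Tpm1 probe sets, at 0.21 to 0.27, did not pass either. Synm, synemin, an intermediate filament protein that pairs with desmin, moved the other way. Synm averaged 955.2 ± 180.2 in obese rosiglitazone and 1402 ± 105.1 in lean rosiglitazone kidneys, and 844.8 ± 96.27 in obese control and 1400 ± 360.3 in lean control kidneys, a change of -0.63 (SE 0.12, adjusted p = 0.00407). No gene of this list passed for rosiglitazone in either body type or over both, where at most 0.0698% of all probe sets did.

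**Figure D4:**
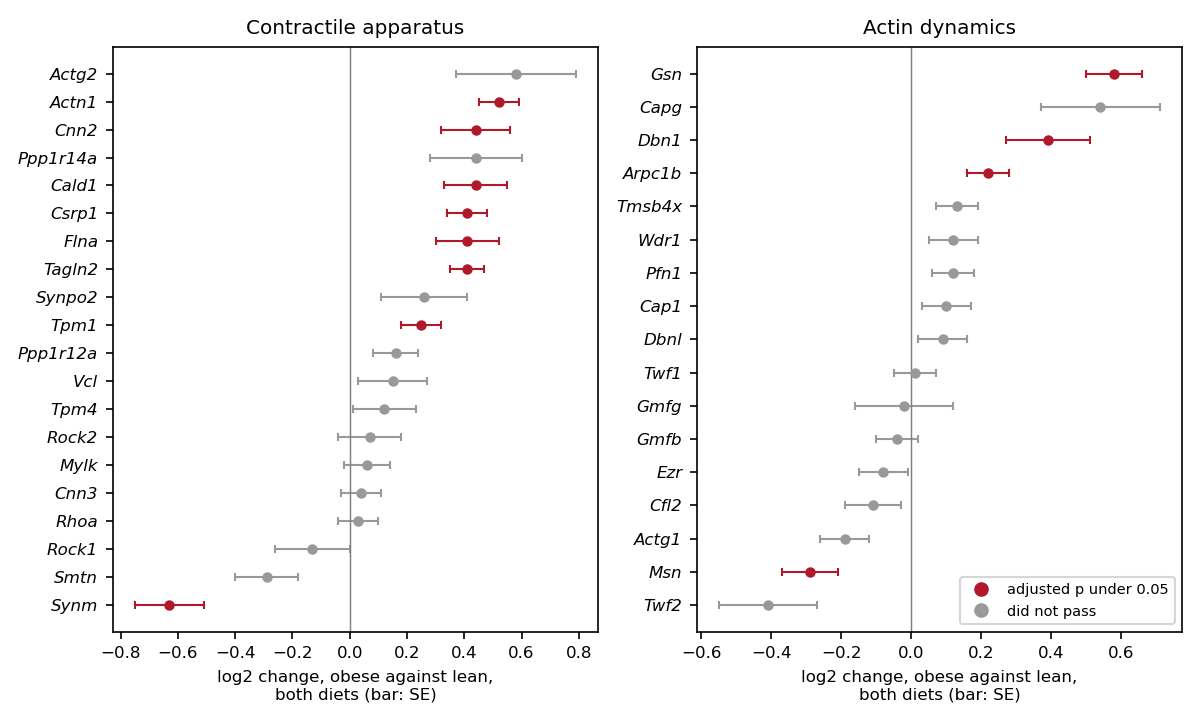
Log2 change, obese against lean over both diets (x axis), for 20 genes of the contractile apparatus and 17 of actin dynamics (y axes), with points for the fitted value, bars for its SE and red for an adjusted p under 0.05. Actn1 (0.52) and Gsn (0.58) have the highest red points of their lists, and Synm (-0.63) and Msn (-0.29) are the red points below 0.

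Among 8 tested genes of smooth muscle signalling and ion channels, 1 rose and 1 fell over both diets, shares close to the 7.69% and 6.62% of all probe sets, so the count is no result about the list. Kcnma1, the calcium-activated potassium channel that relaxes smooth muscle, rose by 0.47 (adjusted p = 0.0398). Atp2a2, the calcium pump SERCA2 of the sarcoplasmic reticulum, which tubule cells also use, fell by 0.40 (SE 0.06, adjusted p = 0.0011), and its further probe sets changed by -0.41, -0.69 and -0.13. Of the factors that drive the smooth muscle genes, Srf, Mrtfa and Klf4 were tested and did not pass in any comparison. Srf, serum response factor, changed by 0.00 over both diets (SE 0.08), Mrtfa, a myocardin relative, by -0.20 with rosiglitazone over both (adjusted p = 0.999), and Klf4, a repressor of the smooth muscle programme, by -0.31 on the control diet (adjusted p = 0.299). In the PDGF family the 3 tested genes did not pass, with Pdgfra at -0.36 for rosiglitazone in lean rats (adjusted p = 0.981) and the ligand gene Pdgfa at -0.19 over both diets (adjusted p = 0.411).

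Markers of other cell types that could carry the member genes were read beside them. Over all probe sets 7.69% rose and 6.62% fell in obese kidneys over both diets. None of 8 tested pericyte and mesangial markers passed over both diets, with a median of 0.15. Cspg4 and Angpt1 of this list were below the filter and not tested. Cspg4 read 110.1 to 272.6 in obese control kidneys, against 68.64 to 91.49 in lean control kidneys. On rosiglitazone it read 131.7 to 190.4 in obese kidneys, against 24.26 to 72.13 in lean kidneys. Full separation upward was found in 7.14% of probe sets below the filter on the control diet and in 4.37% on rosiglitazone. Angpt1 overlapped on both diets. Gata3, a mesangial transcription factor, had a change of 0.30 (adjusted p = 0.157) and did not pass. Of 9 endothelial markers none passed over both diets, with 8 above 0 and a median of 0.20. On rosiglitazone alone 1 of the 9 passed, Eng, endoglin (0.66, adjusted p = 0.0472), where 5% of all probe sets did. The endothelial median was 0.44 on rosiglitazone, with 8 above 0, and -0.04 on the control diet, with 2 above 0. Of 6 tested fibroblast markers none passed in any comparison, and over both diets 5 were above 0 in obese kidneys, with a median of 0.22. Among them Col1a1, the main fibrillar collagen chain, had the smallest p with a change of -0.69 over both body types for rosiglitazone (adjusted p = 0.274). Of 4 podocyte markers Wt1 rose by 0.59 in obese kidneys over both diets (adjusted p = 0.0341), and all 4 had changes above 0 with a median of 0.56. Podocytes carry actin bundles of their own. Fat cell markers moved the other way: 6 of 7 fell in obese kidneys over both diets, with sums of 5776 to 7171 in obese rosiglitazone, 11180 to 20540 in lean rosiglitazone, 2762 to 3216 in obese control and 4643 to 7768 in lean control kidneys. The part of these cell types in the member values was not tested. Markers of heart muscle were below the filter. Of the 7 skeletal muscle markers on the array, Acta1, Ckm, Myh2 and Myh4 were below it too and read at most 99.1 in any array. Tnnt3 (45.3 to 513), Tnni2 (169.9 to 306) and Myh1 (11020 to 16380) were above it, and none of the 3 passed in any comparison. The Myh1 probe set is of a class that may bind related transcripts, and whether it measures Myh1 is uncertain. Of the 7 kidney tubule markers 2 rose and 4 fell in obese kidneys, and they summed to 74760 to 78940 in obese rosiglitazone, 84340 to 96630 in lean rosiglitazone, 75310 to 85940 in obese control and 84260 to 99130 in lean control kidneys.

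How the genes varied among rats of 1 group was described by correlating deviations from the group means over the 12 arrays, which share their scaling and 8 residual degrees of freedom. Of the 21 pairs among the 7 smooth muscle and pericyte genes, 15 had an r above 0, with a median of 0.17 and a range of -0.19 to 0.75. Myl9, Tagln and Des deviated together, with r of 0.67 for Myl9 and Tagln, 0.69 for Myl9 and Des and 0.61 for Tagln and Des. Obese control 1, the only obese array of the higher spike-in class, was the lowest of its group for all 3 genes. Its part in these values was not tested. Myh11 and Tpm2 formed another pair at 0.75, and neither followed the first 3, with r between -0.19 and 0.07. Cotl1 had a median r of -0.13 over its 7 pairs with these genes, from -0.50 with Tpm2 to 0.38 with Des, and 3 were above 0. This range overlapped that of the 21 pairs. Over pairs of 2000 genes drawn at random the median r was 0.001.

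**Figure D5:**
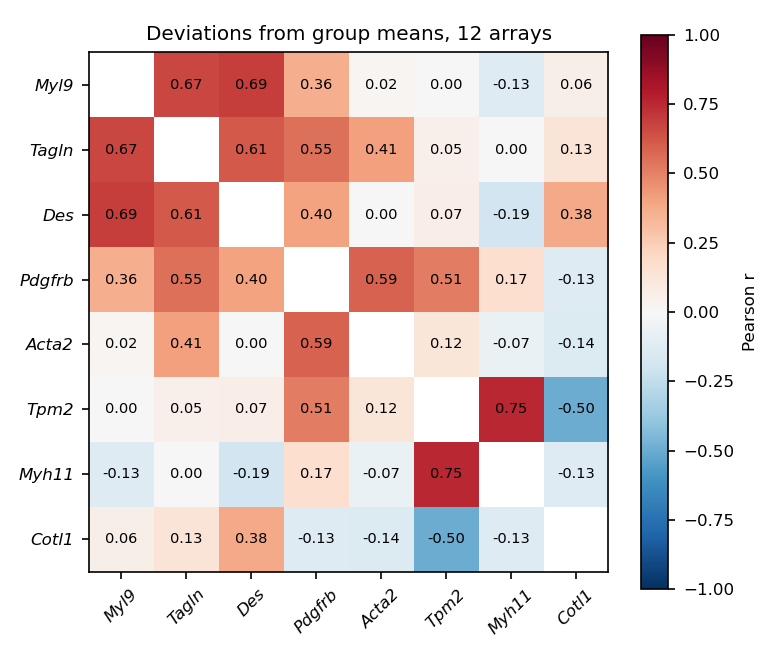
Pearson r between the deviations of 8 genes from their group means over 12 arrays, with the r in each cell and colour from -1 to 1. Myl9, Tagln and Des form a block of 0.61 to 0.69, and Myh11 and Tpm2 a pair at 0.75.

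The genes most like Cotl1 in these deviations, among 10523, were Glt8d1 (r = 0.926), Mfn1 (0.917), Pld2 (0.915), Pomt1 (0.909) and Sod3 (0.896). Without subtracting the group means they were Slc26a1 (0.866), Pgpep1 (0.86), Asph (0.85), PCOLCE2 (0.844) and Spns2 (0.841). For the mean of the 7 smooth muscle and pericyte genes, among 10517, the most alike in deviations were Pltp (0.942), Pgm3 (0.934), Dkk3 (0.9), Agtr1b (0.898), an angiotensin II receptor, and Lyve1 (0.888), a lymphatic endothelial marker. Without the subtraction they were Ly6c (0.928), Sirpa (0.927), Elk3 (0.917), Ubash3b (0.914) and Adamts8 (0.912). These values come from a search of all genes over 12 arrays and are a description only.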

How the data were processed

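The platform was the Affymetrix Rat Genome 230 2.0 array, with kidney RNA of 12 Zucker rats. Per the labels' protocols, Trizol extraction was followed by biotin labelling. The authors deposited linear MAS5 intensities, 1 value per probe set, and the submitters' processing notes name MAS5 alone. The sources used here do not give its version, the scanner or the scaling target. The 2% trimmed means of the 12 arrays, computed from the deposited intensities, lay between 500.12 and 500.15, so no further normalization was applied.

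Of 31099 probe sets, 57 controls were left out. Of the remaining 31042, 20826 carried 1 gene symbol, 436 several, and 9780 were unnamed here. Gene IDs of 20758 were found in the RefSeq gene table of GRCr8, with 0 symbols differing. Values were turned to log2(signal + 16), and the 18625 probe sets with a mean at or above the 40th percentile (7.32) were tested. The offset understates changes of dim probe sets.

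The model held the 12 arrays and a mean for each of the 4 groups, with 8 residual degrees of freedom (limma 3.58.1 and statmod 1.5.0 in R 4.3.3, eBayes with trend and robust settings). Two-sided p-values were adjusted (Benjamini-Hochberg) over all 18625 probe sets within each of 7 comparisons, and a probe set passed at an adjusted p under 0.05. The fit was tested on simulated data of this size for the comparison over both diets. It recovered 20% of changes at 1.25-fold, 60% at 1.5-fold, 80% at 2-fold and, at 3-fold, 98%, and made 5 false calls. Only 50 of the 18625 probe sets were changed at each fold, and the noise was drawn independently. In the data themselves 14.3% of probe sets passed in this comparison, so the recovery figures describe the simulated setting alone.

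Where a gene had several probe sets, the one of highest mean log2 is given. From each related list, up to 4 members of smallest p among those that passed were to be named, or 2 that did not pass. The further members named for the same list (in the contractile list the remaining ones that passed, and in the other lists Twf2, Gmfg, Coro1a, Ptprc and Srf) were chosen after their values were seen. Members and lists were chosen with earlier results of these data known. Alternatives were the offset, the filter, the scaling, the moderation, array weights, the spike-in class, a replicate block and leaving out each array. Replicate numbers were checked for pairing: over 18 pairs of same-numbered arrays in different groups, correlations of deviations from the group means ran from -0.18 to 0.18, and 4 were over 0.1, so the numbers were not used as pairs.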

Additional observations from a re-analysis of the deposited data

Results flagged for a closer look

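Among the member probe sets below the filter, which entered no test, 5 of the pairings of a probe set with a comparison showed groups that did not overlap, 3 upward and 2 downward. A probe set shared by Acta2 and Actc1 averaged 26 in obese control kidneys (24.5 to 28.4), against 14.8 in lean control kidneys (10.8 to 19.9), a full separation upward found in 7.14% of the 12417 probe sets below the filter. In obese rosiglitazone kidneys the same probe set averaged 13.9 (11.8 to 16.8), below the obese control arrays, as in 5.42% of these probe sets. A Pdgfrb probe set averaged 103 in obese rosiglitazone kidneys (74.9 to 121), against 61.2 in obese control kidneys (53 to 73.2), as in 4.07%. Another Pdgfrb probe set averaged 49.8 in lean rosiglitazone kidneys (39.6 to 61.9), against 30.6 in lean control kidneys (27.6 to 34.2), as in 5.07%. In obese rosiglitazone kidneys this one averaged 32.4 (25.5 to 37.2), below the lean rosiglitazone arrays, as in 9.06%. The tested Pdgfrb probe set overlapped between diets in both body types. These differences were not tested.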

How the results depend on the processing

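Counts of member probe sets that passed, out of 9, depended on settings as follows. For obese against lean over both diets the count of 3 was 5 with array weights and 1 with the spike-in class in the model, and 2 to 5 when 1 array was left out. On the control diet the count was 1 (Cotl1). It was 0 without the filter, with median centring, plain eBayes, the replicate block or the spike-in class in the model. It was 4 with array weights and 0 to 2 when 1 array was left out. The 2 that passed without obese control 1 were Tagln and Des, not Cotl1. Within the lower class, which holds 1 lean control array, the change of Tagln was 1.24. On rosiglitazone the count of 1 (Tpm2) was 0 to 1 when 1 array was left out. For the drug in obese rats the count of 1 (Cotl1) was 0 without the filter, with median centring, plain eBayes, the replicate block or the lower class alone. Over both body types it was 0 under those 5 settings and with an offset of 64 or 1. Leaving out 1 array gave 0 to 1 for both. The counts for the drug in lean rats and for the difference between body types were 0 in every alternative run.

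Tpm2 passed over both diets in every alternative run. Acta2 did so in all but the fits with the spike-in class in the model (adjusted p = 0.0555) or with the lower class alone (adjusted p = 0.162), where its change was 0.35 and 0.34, against 0.41 as reported. The lower class holds 1 lean array on each diet. Myl9 lost its call over both diets without the filter (adjusted p = 0.0606), with quantile normalization (0.0727), median centring (0.0731), plain eBayes (0.0505), the class in the model (0.177) and the lower class alone (0.172), and it was lost in 9 of the 12 fits without 1 array. Its change was 0.22 with the class in the model and 0.25 to 0.30 in the other 5 of these settings, against 0.29 as reported. Tagln and Des passed over both diets with array weights (adjusted p = 0.0419 and 0.042). Within the lower class alone the change over both diets was 0.61 for Tagln, against 0.50 as reported, and 0.30 for Des, against 0.34. The replicate block changed no call of a smooth muscle gene over both diets, with adjusted p = 0.0061 for Tpm2, 0.0116 for Acta2 and 0.0415 for Myl9. The number of all probe sets called ranged from 1147 to 3160 over both diets (2665 as reported), from 52 to 1384 on the control diet (882) and from 474 to 1037 on rosiglitazone (932). In obese rats it was 0 to 36 for the drug (13), in lean rats 0 to 23 (1), over both 3 to 20 (11) and for the difference 0 to 6 (0).

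Signs turned only among changes that had not passed, and the cause was not tested. In obese against lean, Pdgfrb was -0.34 in the higher class (control diet), -0.07 with array weights and -0.22 with the class in the model (rosiglitazone), and -0.11 with the class in the model (both diets). The probe set shared by Acta2 and Actc1 was 0.06 in the lower class (control diet). On rosiglitazone Tagln was -0.02 in the lower class, Des -0.08 with the class in the model and -0.07 in the lower class, and Myh11 -0.01 with quantile normalization and -0.06 with array weights. For the drug in lean rats, the lower class gave 0.52 for Tagln, -0.44 for Pdgfrb, -0.08 for Myh11 and 0.10 for Myl9. In obese rats Pdgfrb was 0.01 with median centring and Tpm2 -0.06 in the lower class. Over both body types Pdgfrb was -0.02 with the class in the model and -0.38 in the lower class, and Myh11 0.02 with array weights and 0.03 with the class in the model.

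Leaving out 1 array gave these ranges where a sign turned. For obese against lean Pdgfrb ran from -0.11 to 0.46 on the control diet, from -0.11 to 0.28 on rosiglitazone and from -0.04 to 0.24 over both. The shared probe set ran from -0.21 to 0.07 on the control diet, and on rosiglitazone Cotl1 ran from -0.14 to 0.07 and Myh11 from -0.16 to 0.14. For the drug in obese rats the ranges were -0.19 to 0.02 for Acta2, -0.13 to 0.07 for the shared probe set, -0.33 to 0.24 for Pdgfrb and -0.06 to 0.16 for Tpm2. In lean rats they were -0.19 to 0.02 for Acta2, -0.03 to 0.28 for Myh11, -0.08 to 0.05 for Myl9, -0.15 to 0.26 for Pdgfrb and -0.21 to 0.22 for Tagln. Over both body types they were -0.06 to 0.09 for Myh11 and -0.12 to 0.17 for Pdgfrb.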
